A study of Mus musculus with 4 samples.

Results

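State 2 is one of 7 states that the deposited annotation gives to microglia of the mouse cortex, and every cell carrying that state name was taken. These were 692 cells, of 9077 microglia with a state and of 15451 cells in all. The study profiled brain immune cells, sorted for the leukocyte surface marker CD45, by droplet-based 3′ single-cell RNA sequencing with unique molecular identifiers (UMIs, tags that count each captured RNA molecule once). The genotypes ADAM and AD were compared at 18 months of age. ADAM mice were APP/PS1 animals that also lacked both Axl and Mertk (Axl-/- Mertk-/-), and AD mice were APP/PS1 animals with no further allele named. Both groups thus carry the APP/PS1 amyloid transgenes, so neither is free of amyloid pathology, and the sources used here give neither the promoter of the transgenes nor the deleted stretches of Axl and Mertk. Each genotype had 2 libraries, called ADAM 1, ADAM 2, AD 1 and AD 2 below, and each library pooled 2 cortices, so the spread between libraries is a spread between pools. The series title puts the study's question at how microglia use the receptors Axl and Mertk toward amyloid plaques.

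Microglia are the resident macrophages of the brain and are recognised by genes such as Cx3cr1 (the fractalkine receptor), P2ry12 (a purinergic receptor of resting microglia) and the complement gene C1qa. Near amyloid plaques they lower resting genes and raise a disease-associated (DAM) programme with Apoe, Cst7, Lpl and Itgax. The genes given as markers of state 2 belong to other cells: Hbb-bs and Hba-a1 encode the beta and alpha chains of adult haemoglobin in red blood cells, and Ttr encodes transthyretin, made in the brain mainly by the epithelium of the choroid plexus. A droplet can hold an intact cell, a damaged cell or RNA that floats free in the suspension. Malat1 and Neat1 RNAs stay in the nucleus, messengers of ribosomal proteins are abundant in the cytoplasm, and the 13 mitochondrially encoded messengers sit inside mitochondria.

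The haemoglobin genes are shown by the 250 bases before their RefSeq start sites, because all 4 adult chains moved together in a few state 2 cells. The windows lie at chr7:103827929-103828178 (Hbb-bs, minus strand), chr7:103813924-103814173 (Hbb-bt, minus strand) and chr11:32283422-32283671 (Hba-a1, plus strand) of GRCm38.p6, the assembly of mm10, and capitals mark 4 motifs searched on both strands: the CCAAT box, the TATAA box of the core promoter, the CACCC box read by the erythroid factor Klf1, and GATAA, a core read by GATA factors. No match overlapped another.
Hbb-bs: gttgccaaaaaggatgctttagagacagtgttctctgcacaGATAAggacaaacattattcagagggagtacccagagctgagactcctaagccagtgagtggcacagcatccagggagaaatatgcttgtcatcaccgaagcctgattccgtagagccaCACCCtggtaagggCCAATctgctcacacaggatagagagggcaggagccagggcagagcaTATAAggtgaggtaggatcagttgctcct
Hbb-bt: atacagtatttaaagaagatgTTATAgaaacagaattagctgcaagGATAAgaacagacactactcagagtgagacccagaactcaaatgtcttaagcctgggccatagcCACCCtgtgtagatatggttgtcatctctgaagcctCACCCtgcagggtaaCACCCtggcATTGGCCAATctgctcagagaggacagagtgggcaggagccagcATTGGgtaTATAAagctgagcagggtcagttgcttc
Hba-a1: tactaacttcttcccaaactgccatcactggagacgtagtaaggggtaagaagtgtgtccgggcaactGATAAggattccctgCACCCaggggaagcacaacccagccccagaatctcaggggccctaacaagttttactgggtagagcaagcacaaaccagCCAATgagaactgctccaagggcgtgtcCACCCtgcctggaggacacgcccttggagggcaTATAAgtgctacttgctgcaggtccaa
All 4 motifs were found in each of these windows and in that of Hba-a2, whose window was 97.6% identical to that of Hba-a1 in a global alignment. Among 27025 promoters of the same length, 34.5% held the CCAAT box, 23.5% held the TATAA box, 51.3% held the CACCC box and 23.0% held GATAA, and 1.01% held all 4. A match is a run of letters in the window and is no evidence of binding. The transcripts of each pair share long stretches: 65.8% of the 50-base windows of Hbb-bs occurred letter for letter in Hbb-bt, and 67.5% of those of Hba-a1 in Hba-a2. The split of UMIs within a pair is therefore uncertain, and the haemoglobin genes are summed below.

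Over the whole series the 4 libraries held 3241 to 4543 cells and 14963857 to 29831947 UMIs, no deposited cell had under 500 UMIs, and no cell exceeded 9.9874% mitochondrial UMIs. Across libraries 24 cell barcodes recurred, 1 of them in state 2, and none recurred within state 2. None of the 692 cells carried the deposited doublet mark, and the deposited doublet score had a median of 0.012 over state 2 and 0.331 over the microglia of the other states. ADAM 2 stood apart from the other libraries in the content of its state 2, as given beside each result.

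State 2 was the shallow end of the microglia. Its median depth was 818 and 865 UMIs per cell in ADAM 1 and ADAM 2, and 808.5 and 886.5 UMIs in AD 1 and AD 2. Microglia of the other 6 states had medians of 5833, 6087, 4917.5 and 6369.5 UMIs in ADAM 1, ADAM 2, AD 1 and AD 2, so a state 2 cell held 0.140, 0.142, 0.164 and 0.139 times the UMIs of its neighbours in the same library. Of all 692 cells, 279 had under 750 UMIs, 163 had 750 to 1000, 176 had 1000 to 2000, 57 had 2000 to 5000 and 17 had 5000 or more, and 11 of those 17 came from ADAM 2. Read the other way, 442 of the 480 microglia with under 1000 UMIs carried the name state 2: 95.1% in ADAM 1, 97.5% in ADAM 2, 69.5% in AD 1 and 97.9% in AD 2. AD 1 was thus the library in which shallow microglia were most often placed in other states.

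Cells of state 2 made up 9.06% of the microglia in ADAM 1 (210 cells, exact binomial interval 7.93 to 10.3%) and 11.8% in ADAM 2 (244 cells, 10.5 to 13.3%), against 4.88% in AD 1 (78 cells, 3.87 to 6.05%) and 5.16% in AD 2 (160 cells, 4.41 to 5.9996%). The intervals cover counting error only. Since the state was cut from the same cells' genes and depth, these shares are given as a description and no test of genotype was made on them. In UMIs the state was much smaller, at 1.48% and 2.64% of microglial UMIs in ADAM 1 and ADAM 2 and 1.12% and 0.876% in AD 1 and AD 2. With every cell thinned at random to 500 UMIs, state 2 cells had a median of 327 and 341 detected genes in ADAM 1 and ADAM 2 and 319 and 331 in AD 1 and AD 2, and the other microglia had 335, 331, 334 and 340. Single states lay on both sides: state 3 had medians of 276.5 to 281.5 genes and state 1 of 341 to 357 by library.

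**Figure D1:**
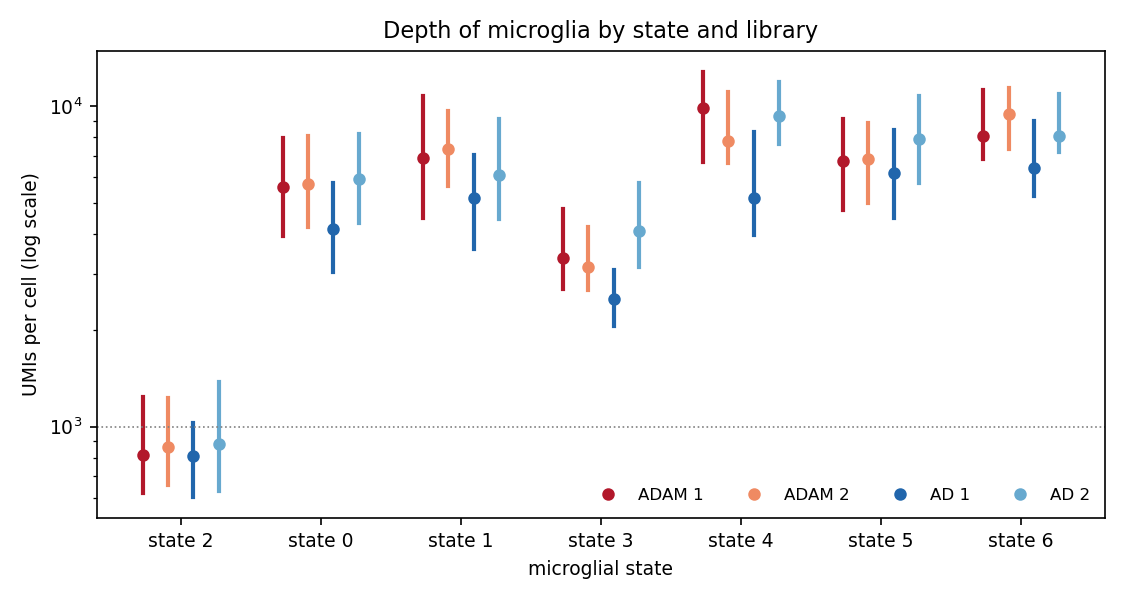
UMIs per cell (log scale) for the 7 microglial states, state 2 first, in ADAM 1, ADAM 2, AD 1 and AD 2 from left to right; points are medians over cells, bars run from the lower to the upper quartile and the dotted line marks 1000 UMIs. The 4 medians of state 2 lie between 808.5 and 886.5 UMIs, below those of each of the other states.

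The haemoglobin that names the state sat in 7 cells of 1 library. In ADAM 2, 58189 of the 58255 haemoglobin UMIs of state 2 were in 7 cells of 6798 to 15012 UMIs, in which haemoglobin took 38.6 to 95.01% of each cell's UMIs. Those cells held 0 to 17 UMIs of the 18 microglia markers. State 2 of ADAM 1, AD 1 and AD 2 held 0 haemoglobin UMIs in 218344, 96012 and 190067 UMIs. Other erythroid genes were in the same library: Alas2 (the first enzyme of haem synthesis in red cells) had 136 UMIs in 8 ADAM 2 cells, and Slc4a1 (the band 3 anion exchanger) had 20 UMIs in 5 cells. Outside state 2, haemoglobin was likewise at 1% or more in single cells. In ADAM 1 these were 2 of 12 endothelial cells. In ADAM 2 they were 1 of 21 endothelial cells, 1 of 76 macrophages and 1 of 580 neutrophils.

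In the remaining 237 state 2 cells of ADAM 2 haemoglobin was a trace. They held 66 haemoglobin UMIs, or 0.278 per cell, against 0.144 per cell in the other microglia and 0.156 per cell in T and NK cells of the same library. As CPM (UMIs per 1e6 UMIs of the cell set) the same counts read 242 in state 2, 20.6 in the other microglia and 42.7 in T and NK cells, the state 2 cells being the shallow ones. With all cells thinned to 500 UMIs, 22 of these 237 cells had a haemoglobin UMI (9.28%, exact binomial interval 5.91 to 13.7%), against 1.27% of the other microglia and 2.17% of T and NK cells.

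Ttr followed the same course in other cells. All 5713 Ttr UMIs of AD 1 state 2 were in 1 cell of 10575 UMIs, and choroid plexus markers took 56.3% of that cell, with 188 UMIs of Enpp2 (the lysophospholipase autotaxin) among them. In ADAM 2, state 2 held 537 Ttr UMIs, 476 of them in 1 cell of 920 UMIs with 54.1% choroid plexus markers. ADAM 1 and AD 2 state 2 held 0 Ttr UMIs. Without its choroid plexus cell and the 7 haemoglobin cells, ADAM 2 state 2 had 58 Ttr UMIs, or 213 CPM, against 23.4 CPM in the other microglia. Unthinned, 21.7% of ADAM 2 state 2 cells had a Ttr UMI, against 13.9% of the other microglia and 13.3% of T and NK cells, at median depths of 865, 6087 and 3416 UMIs.

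Counting haemoglobin and choroid plexus markers together, 9 of the 692 cells had 1% or more of their UMIs on them: 0 in ADAM 1, 8 in ADAM 2, 1 in AD 1 and 0 in AD 2. The values just inside and outside that limit were 38.6% and 0.43% for haemoglobin and 54.1% and 0.46% for choroid plexus markers, so no cell lay near it. The other 683 cells are called the low-marker cells below. The given markers thus marked 9 cells, and the group is called here by its annotated name, state 2.

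Single cells with other profiles were also filed here. The 10 genes with the highest ratio of state 2 to the other microglia were taken in each library, and 22 of these 40 entries had their UMIs in 5 or fewer cells, and 23 had 50% or more of them in 1 cell. In ADAM 1 they included Cma1 (a mast cell chymase), with 136 UMIs in 1 cell, and the pericyte genes Vtn and Rgs5, with 87 and 25 UMIs in 3 and 2 cells. In ADAM 2, after the haemoglobin genes, Ppbp (pro-platelet basic protein) had 269 UMIs in 3 cells, and Pf4 (platelet factor 4), of the platelet list, had 1375 UMIs in 5 cells. A pair of ADAM 2 cells with 6460 and 6667 UMIs had 17.3% and 11.2% of them on 8 platelet genes. In AD 1, astrocyte genes followed Ttr and Enpp2 among these 10: Slc1a2 (a glutamate transporter) had 89 UMIs in 5 cells, Aldoc 70 UMIs in 4 cells and Clu 117 UMIs in 6 cells. The choroid plexus cell held 63 of those Clu UMIs, and the low-marker cells held 54. In AD 2, Vtn had 69 UMIs in 1 cell, and 1 cell of 579 UMIs had 23.0% of them on neutrophil genes, with 75 of the library's 88 state 2 UMIs of S100a9. The limit of 2% of UMIs on any list of another cell type, chosen after the values were seen and with lists of platelet, mural, mast cell and fibroblast genes added then, was passed by 4, 23, 7 and 4 cells of ADAM 1, ADAM 2, AD 1 and AD 2, which is 38 of 692.

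**Figure D2:**
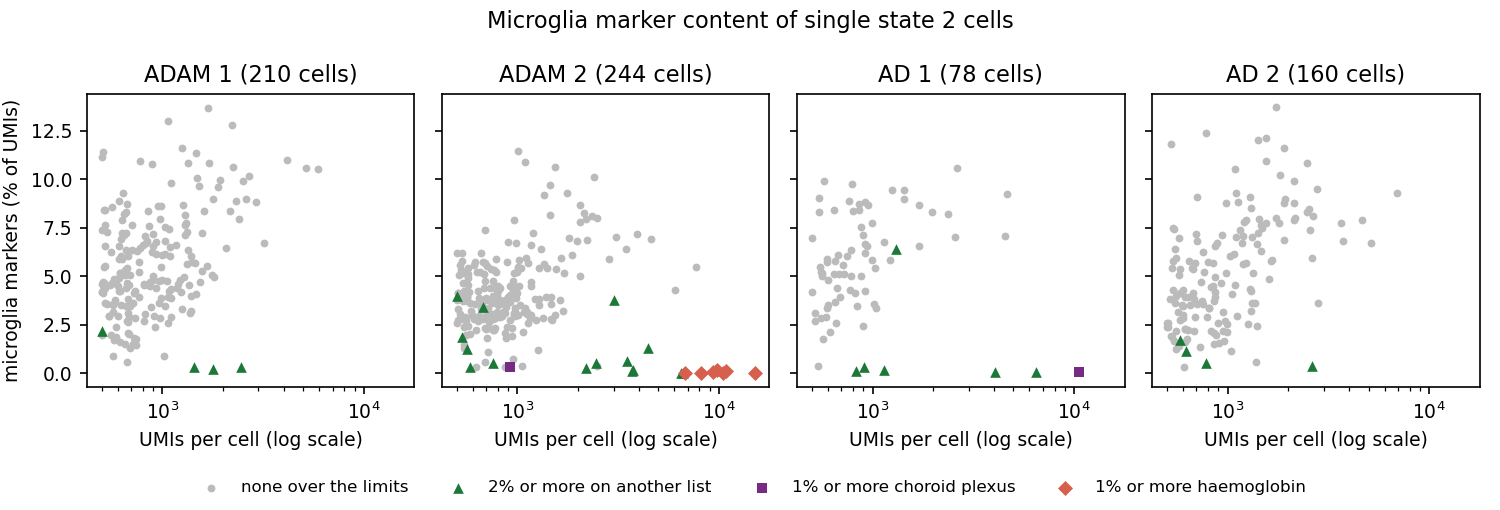
Each point is 1 state 2 cell, in panels for ADAM 1, ADAM 2, AD 1 and AD 2, with its UMIs on a log axis and the percent of its UMIs on 18 microglia markers. Diamonds (1% or more haemoglobin) are 7 deep ADAM 2 cells near 0, squares are the 2 choroid plexus cells, triangles are cells with 2% or more on another list, and most of the other cells lie above them.

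Most of the other state 2 cells held more microglia marker UMIs than T and NK cells. The T and NK cell level can hold their own expression of some listed genes as well as stray RNA. These parts were not told apart, so it serves as a comparison level only. The 18 microglia markers had a median of 43 and 31 UMIs per cell in ADAM 1 and ADAM 2 and 39 and 40 in AD 1 and AD 2, over the state 2 cells under 1% haemoglobin. T and NK cells of the same libraries had medians of 7, 5, 4 and 5 UMIs, at more UMIs per cell. The 95th percentile of the T and NK cells, at 25, 21, 14 and 13 UMIs, was passed by 160 of 210 and 170 of 237 of these state 2 cells in ADAM 1 and ADAM 2 and by 68 of 78 and 139 of 160 in AD 1 and AD 2. With each cell thinned to 500 UMIs the percentile was 4, 4, 3 and 3 UMIs and was passed by 97.6% and 93.2% of them in ADAM 1 and ADAM 2 and by 91.0% and 97.5% in AD 1 and AD 2. The markers of the remaining cells cannot be told from the T and NK cell level. As a share of UMIs the list stood at 6.38% and 3.33% in state 2 of ADAM 1 and ADAM 2 and at 5.01% and 6.17% in AD 1 and AD 2, against 6.11, 5.35, 6.18 and 5.96% in the other microglia. ADAM 2 was the low one, and stood at 4.18% over its low-marker cells. The gene ratios below are CPM in the low-marker cells over CPM in the other microglia of the same library. Of the 18 genes, 5 were higher and 4 lower than in the other microglia in all 4 libraries, while of 7539 genes with a mean of at least 10 CPM in the other microglia, 21.3% were higher and 20.9% lower in all 4. The 18 genes had a median log2 ratio of 0.03, against −0.01 over all those genes. Csf1r (the receptor for the microglial survival factor CSF1) was 1.64, 1.17, 1.48 and 1.63 times the other microglia in ADAM 1, ADAM 2, AD 1 and AD 2. P2ry12 was 0.80, 0.62, 0.61 and 0.77 times, and Tyrobp (the adaptor of the Trem2 receptor) 0.42, 0.48, 0.45 and 0.45 times.

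Detection at matched depth put P2ry12 below the other microglia. With 500 UMIs per cell, P2ry12 was found in 36.7% and 16.4% of state 2 cells of ADAM 1 and ADAM 2 and in 33.3% and 38.1% of those of AD 1 and AD 2. The shares in the other microglia were 47.4, 32.1, 44.2 and 45.5%. T and NK cells should not express the gene, and 2.06, 1.49, 0.978 and 1.45% of them had a UMI. P2ry12 was thus far above the T and NK cell level in state 2 and below the other microglia in each library.

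Over all genes the low-marker cells were most like state 0, the largest state, among the 6 other states. Pearson's r of log2 CPM with state 0 was 0.85 and 0.89 in ADAM 1 and ADAM 2 and 0.79 and 0.83 in AD 1 and AD 2, over 1237 to 1335 genes per library. State 1 came next, at 0.84, 0.87, 0.78 and 0.82. With state 5, the second largest state, r was 0.73, 0.81, 0.75 and 0.68, and with T and NK cells it was 0.33, 0.47, 0.31 and 0.27. With macrophages r was 0.70, 0.74, 0.64 and 0.72, which in AD 2 was above that with state 5. Genes are not independent and these correlations describe the profiles only. The DAM list took 6.39% and 5.95% of state 2 UMIs in ADAM 1 and ADAM 2 and 9.65% and 7.29% in AD 1 and AD 2. Those levels lay between those of state 0, at 4.03, 4.54, 3.64 and 3.70%, and state 5, at 12.1, 12.6, 14.4 and 13.8%. Of its 31 genes, 20 lay between states 0 and 5 in all 4 libraries. By the same count 6 of 18 microglia markers, 4 of 7 MHC class II genes and 2 of 29 immediate early genes did. None of 30 interferon, 16 iron or 13 mitochondrially encoded genes did. The share over all genes is not given, and the DAM list itself sets states 0 and 5 apart, so the count is a description only. Apoe (the lipid carrier) was 1.06, 1.05, 1.67 and 1.57 times its level in the other microglia, and Cst7 (cystatin F) 0.50, 0.38, 0.65 and 0.56 times.

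A shift common to all 4 libraries was toward the nuclear RNA Malat1 and away from ribosomal protein messengers. Malat1 took 8.54% and 6.40% of state 2 UMIs in ADAM 1 and ADAM 2 and 7.38% and 7.48% in AD 1 and AD 2, against 2.00, 2.23, 2.07 and 2.26% in the other microglia. Ribosomal protein genes took 6.31% and 7.92% in ADAM 1 and ADAM 2 and 5.34% and 6.40% in AD 1 and AD 2, against 17.4, 19.4, 16.0 and 17.2% in the other microglia. Among 659 genes deep enough to be compared in the low-marker cells of every library, 26 were 2-fold or more higher than in the other microglia in all 4 and 64 were 2-fold or more lower. Ribosomal protein genes made up 47 of the 64, out of 78 compared. No other state overlapped state 2 in either measure: Malat1 was at most 3.03% and ribosomal protein genes at least 12.7% in each of the other states and libraries. State 3, the next shallowest state, lay at the opposite end, with Malat1 at 0.181 and 0.143% in ADAM 1 and ADAM 2 and 0.0510 and 0.0320% in AD 1 and AD 2, and ribosomal protein genes at 25.7 to 31.3%.

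The 26 higher genes held further members of the list of nuclear-retained RNAs. Besides Malat1 these were Neat1 (2.08 to 3.19 times) and Kcnq1ot1 (2.02 to 3.23 times). The predicted gene Gm26778 was 6.69 to 10.55 times the other microglia. Ank2 (ankyrin B) was 2.55 to 5.60 times and Elmo1 (an engulfment adaptor that activates Rac) 2.41 to 2.71 times the other microglia. Ptprc, which encodes CD45 and so the sort marker, was 2.08 to 2.61 times. Ccl5, a chemokine of T and NK cells, was 3.37 to 10.7 times, and the list of T and NK cell genes stood at 0.352 and 0.221 UMIs per cell in state 2 of ADAM 1 and ADAM 2 and 0.718 and 0.319 in AD 1 and AD 2. The other microglia held 0.498, 0.308, 0.318 and 0.291 UMIs of that list per cell. Ccl5 is itself on that list, with 46 and 31 UMIs in the low-marker cells of ADAM 1 and ADAM 2 and 31 and 31 in AD 1 and AD 2. The list is thus not a level separate from Ccl5, and the part of T and NK cell RNA in the Ccl5 ratio was not tested.

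The lower genes besides the ribosomal ones included Tyrobp, Aif1 (IBA1, an actin-binding marker of microglia, 0.33 to 0.49 times), Fabp5 (a fatty acid binding protein, 0.27 to 0.45 times) and Tpt1 (0.30 to 0.48 times). The elongation factor genes Eef1a1 (0.32 to 0.43 times) and Eef2 (0.40 to 0.47 times) were in the same group. The ferritin genes Fth1 and Ftl1, which encode the iron store of the cell, were 0.46 and 0.43 times the other microglia in ADAM 1, 0.58 and 0.68 times in ADAM 2, 0.35 and 0.31 times in AD 1 and 0.39 and 0.43 times in AD 2. Of the 16 genes on the iron list 5 were lower in all 4 libraries (Fth1, Ftl1, Hmox1, Blvrb and Ncoa4) and 2 were higher (Ireb2 and Slc11a1). The median log2 ratio was 0.05 with each gene averaged over libraries. Within single libraries it was −0.110 and −0.014 in ADAM 1 and ADAM 2 and −0.008 and −0.062 in AD 1 and AD 2. The summed level of the list thus follows its abundant ferritins.

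Immediate early genes, the transcription factors and stress genes that cells switch on within minutes, were mostly higher than in the other microglia as 1 set, but not in all libraries than in state 0. Of 29 listed, 15 were higher than in the other microglia in all 4 libraries and 2 lower, with a median log2 ratio of 0.42. Against state 0 the summed level of the list was 1.32 and 0.86 times in ADAM 1 and ADAM 2 and 0.71 and 1.08 times in AD 1 and AD 2. Against the other microglia again, Fosb was 3.09 and 2.61 times in ADAM 1 and ADAM 2 and 2.35 and 2.41 times in AD 1 and AD 2. Egr1 was 1.76, 1.74, 1.47 and 1.86 times, and Nr4a1 2.37, 1.64, 4.27 and 4.04 times. Fos itself was 1.45, 1.13, 1.05 and 0.89 times and so did not keep 1 direction. Of 30 interferon response genes, 0 were higher and 6 lower in all 4 libraries, and of 7 MHC class II genes 0 were higher and 1 lower. Among the genes with a mean of at least 10 CPM in the other microglia, 20.9% were lower. The listed genes were not held to that level, so the counts and this share are not on the same footing. Oasl1 of the interferon list and Nr4a2 of the immediate early list had 0 UMIs in the low-marker cells and count as lower. A gene at 0 in any library could not count as higher.

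**Figure D3:**
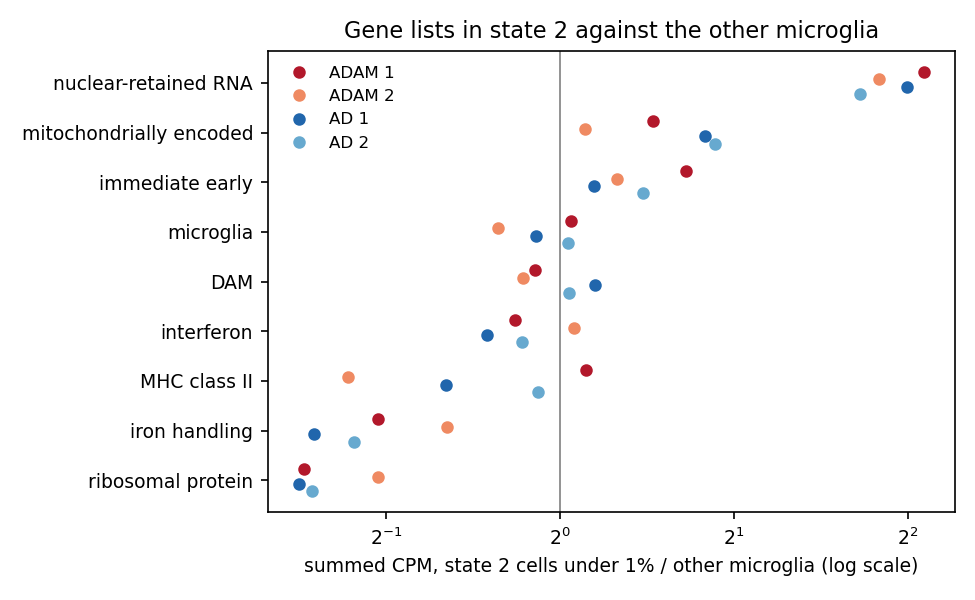
Summed CPM of 9 gene lists in the low-marker state 2 cells over that in the other microglia of the same library (log scale), for ADAM 1, ADAM 2, AD 1 and AD 2 from top to bottom in each row. Nuclear-retained RNA, a sum led by Malat1, lies at 3.30 to 4.25 times, with all 4 libraries on 1 side of 1. Iron handling, a sum led by Fth1 and Ftl1, lies at 0.38 to 0.64 times, also with all 4 on 1 side.

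Mitochondrial content was spread more widely in state 2 than in the large states. The median share of mitochondrial UMIs was 3.80% and 1.89% in ADAM 1 and ADAM 2 and 5.19% and 3.75% in AD 1 and AD 2. Under 1% lay 29.0% and 35.2% of the cells of ADAM 1 and ADAM 2 and 12.8% and 23.8% of those of AD 1 and AD 2. Over 5% lay 42.9% and 27.5% of the cells of ADAM 1 and ADAM 2, 53.8% of those of AD 1 and 64 of 160 cells of AD 2. In state 0 at most 4.31% of a library's cells were under 1% and at most 9.81% over 5%. State 3 had many cells over 5%, from 27.6 to 45.2% by library, and few under 1%, at most 2.63%. The deposited cells end just under 10%, so the upper side is cut. In the low-marker cells, 10 of the 13 mitochondrially encoded genes were higher than in the other microglia in all 4 libraries and 0 lower. Among all 7539 genes compared, 21.3% were higher in all 4. The summed level of the 13 genes was 1.45, 1.10, 1.78 and 1.86 times the other microglia in ADAM 1, ADAM 2, AD 1 and AD 2. Over all state 2 cells of ADAM 2 it was 0.93 times.

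Low and high mitochondrial cells differed in other genes. Among the 683 low-marker cells, 190 were under 1%, 231 at 1 to 5% and 262 over 5%, with 55 cells at 0.8 to 1.2% and 21 at 4.8 to 5.2%, so these are ranges and not types. Median depth was 690, 822 and 1031.5 UMIs in the 3 ranges from low to high. As medians over cells, Malat1 took 10.4, 7.59 and 7.26% of a cell's UMIs in that order. Immediate early genes took 2.64, 2.10 and 1.66%, and microglia markers 3.84, 4.01 and 6.32%, also as medians over cells. The orders of the microglia share and of the immediate early share held within each library, and that of Malat1 within ADAM 1 alone. In AD 2 the immediate early share was 2.52, 2.14 and 2.13%, so the upper ranges there were nearly equal. For the immediate early share Spearman's rho with the mitochondrial share over cells was −0.18 and −0.38 in ADAM 1 and ADAM 2 and −0.04 and −0.07 in AD 1 and AD 2. Spearman's rho between the microglia and mitochondrial shares over cells was 0.46 and 0.30 in ADAM 1 and ADAM 2 (210 and 236 cells) and 0.29 and 0.39 in AD 1 and AD 2 (77 and 160 cells), where both shares have the cell's UMIs as denominator. The microglia share was also higher in deeper cells, with rho of 0.31, 0.19, 0.30 and 0.52.

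**Figure D4:**
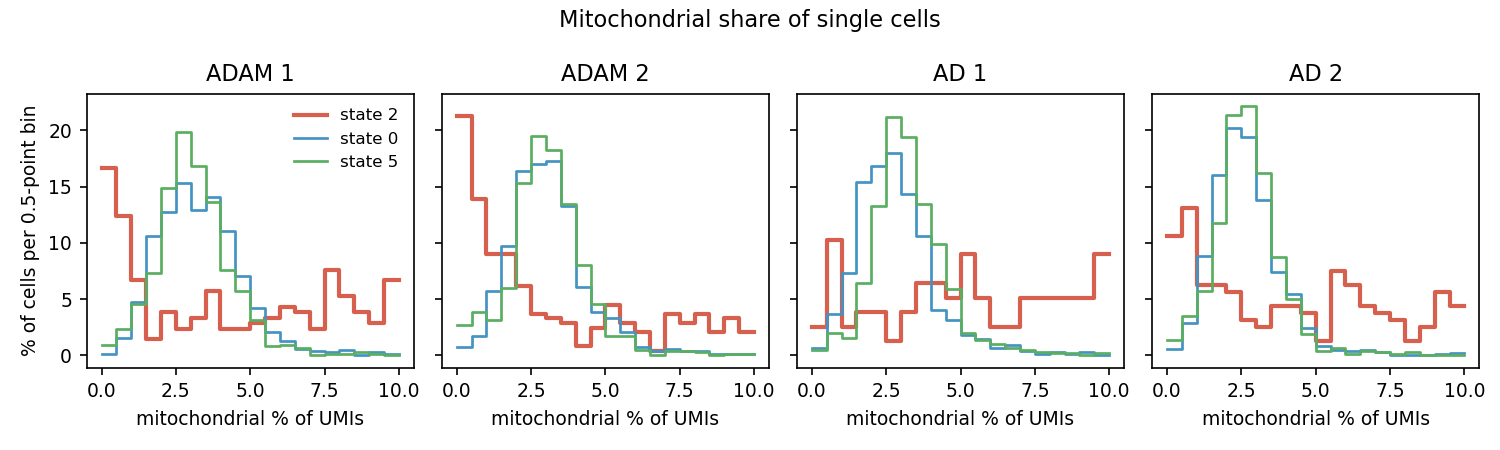
Distribution of the mitochondrial percent of UMIs over cells of state 2 (thick line), state 0 and state 5 in ADAM 1, ADAM 2, AD 1 and AD 2, in bins of 0.5 percentage points. State 2 is spread from 0 to 10 with its tallest bin under 1 in each library, while the tallest bins of states 0 and 5 lie between 2 and 3.5.

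Transcripts of neutrophils gave a number per cell that did not follow depth. S100a8 and S100a9, the subunits of calprotectin, together gave 4.89 UMIs per state 2 cell of ADAM 2 (median 4), at a median depth of 865 UMIs. The other 6 states of that library gave 4.04 to 4.56 UMIs per cell at median depths of 3158 to 9446, and its T and NK cells gave 5.63. In CPM the pair therefore read 3475 in state 2 and 420 to 1306 in the other states. In ADAM 1, AD 1 and AD 2 the state 2 cells held 0.076, 0.564 and 0.894 of these UMIs per cell, with a median of 0 each. ADAM 2 was also the library with the most neutrophils, at 580 cells, against 11, 30 and 136 in ADAM 1, AD 1 and AD 2. The whole list of 8 neutrophil genes gave 5.87 UMIs per state 2 cell and 5.89 per cell of the other microglia in ADAM 2. These sums include Csf3r, with 59 UMIs in state 2 and 1758 in the other microglia of ADAM 2. Csf3r also had 2424 UMIs in the other microglia of ADAM 1, the library with 11 neutrophils. The near equality of the sums is therefore no measure of neutrophil RNA alone. How much of a state 2 cell's RNA came from outside the cell was not tested.

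The genotype comparison asked which genes differed between ADAM and AD within state 2, from counts summed over its cells in each library. edgeR's quasi-likelihood test with Benjamini-Hochberg adjustment called 2 of 3150 genes at an adjusted p under 0.05, which is 0.0635%, with 1 higher (0.0317%) and 1 lower (0.0317%), and 96 had an unadjusted p under 0.05. Gatm, the enzyme that makes the precursor of creatine (chromosome 2, 122594467 to 122611303, minus strand), had 128 and 163 UMIs in state 2 of ADAM 1 and ADAM 2, against 10 and 14 UMIs in AD 1 and AD 2. That is 586 and 475 CPM in the ADAM libraries and 104 and 73.7 CPM in the AD libraries, which do not overlap. Its log2 fold was 2.69 (SE 0.45, edgeR adjusted p = 0.0204). Spint1, a membrane-bound serine protease inhibitor (chromosome 2, 119237362 to 119249527, plus strand), had 0 and 0 UMIs in ADAM 1 and ADAM 2 and 7 and 21 in AD 1 and AD 2 (edgeR adjusted p = 0.0462). Set against a floor of 3 UMIs over both ADAM libraries, Spint1 was 18.3-fold lower in ADAM than in AD. The exact counting interval of the ratio of AD to ADAM began at 13.9.

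Both genes also differed in the other microglia, whose values are given as a description. Gatm stood at 924 and 680 CPM in the other microglia of ADAM 1 and ADAM 2 and at 92.0 and 116 CPM in those of AD 1 and AD 2. At 500 UMIs per cell, 24.8% of ADAM 1 and 61 of 244 ADAM 2 state 2 cells had a Gatm UMI, against 6.41% and 3.75% in AD 1 and AD 2, and in T and NK cells the shares were 1.18 and 0.9498% in the ADAM libraries and 0.196 and 0.121% in the AD libraries. Spint1 had 0 and 3 UMIs in the other microglia of ADAM 1 and ADAM 2 and 769 and 2044 in those of AD 1 and AD 2. Gatm and Spint1 lie 6.09 and 9.45 Mb from Mertk on the same chromosome. Gatm was called under each alternative run except the crossed pairing of libraries, while Spint1 was not called by DESeq2, by limma-voom, without ADAM 2 or in the crossed pairing, and was not tested without AD 2.

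The number of calls rested on single libraries. Without ADAM 1 edgeR called 48 genes, among them the haemoglobin genes, Pf4 and S100a9, without AD 2 it called 41, among them Slc1a2 and Enpp2, and without AD 1 it called 6. In these fits the lone library of a genotype is assumed to vary like the pair of the other. DESeq2 and limma-voom called 1 gene each. In the 654 cells under the 2% limit 6 genes were called: Gatm and Ifitm2 higher, and Spint1, Axl, Itgax (CD11c) and Aplp2 lower.

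Axl, the TAM receptor (the family of Tyro3, Axl and Mertk) that activated microglia raise, is one of the 2 targeted genes and lies on chromosome 7, 25757273 to 25788705. It had 3 and 2 UMIs in state 2 of ADAM 1 and ADAM 2, against 12 and 15 UMIs in AD 1 and AD 2. In CPM that was 13.7 and 5.83 in ADAM and 125 and 78.9 in AD, with no overlap, and the level in AD was 10.6 times that in ADAM (counting interval 4.02 to 35.2). The edgeR log2 fold was −3.25 (SE 0.73) and did not pass over all genes (adjusted p = 0.249). It was called with no filter on low counts, without ADAM 1, without AD 2 and in the cells under the 2% limit. Mertk (chromosome 2, 128698956 to 128802894) had 137 and 141 UMIs in ADAM 1 and ADAM 2, against 64 and 150 in AD 1 and AD 2, or 627 and 411 CPM against 667 and 789 CPM. Its log2 fold was −0.42 (SE 0.38), and a 3′ tag outside the deleted stretch does not check the deletion. Mertk was also higher in state 2 than in the other microglia, which held 240 and 271 CPM in ADAM 1 and ADAM 2 and 269 and 292 CPM in AD 1 and AD 2. Of the 2 TAM ligands, Gas6 had a log2 fold of −0.40 (SE 0.43) and Pros1 one of −0.27 (SE 0.41), neither of them called, and Tyro3 had 0 UMIs in state 2 of each library.

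**Figure D5:**
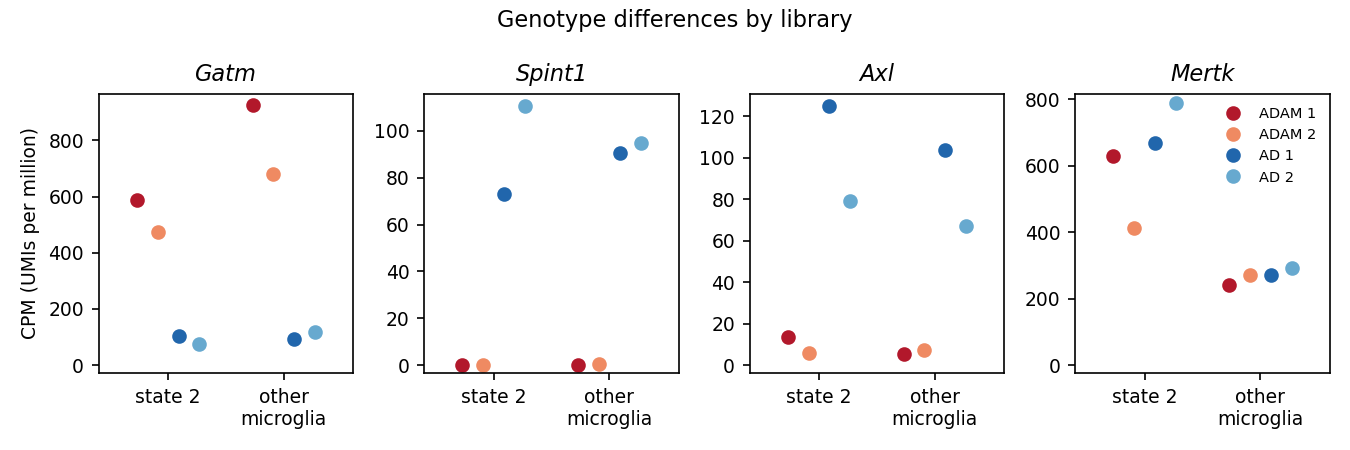
CPM of Gatm, Spint1, Axl and Mertk summed over state 2 cells (left of each panel) and over the other microglia (right), with ADAM 1 and ADAM 2 left of AD 1 and AD 2. Gatm is high and Spint1 and Axl low in both ADAM libraries in both cell sets, and state 2 Mertk lies at 411 to 789 CPM against 240 to 292 CPM.

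No listed gene group held a called member. Of the 30 DAM genes tested, 5 had a positive and 25 a negative log2 fold of ADAM over AD, with a median of −0.35, against 51.1% positive and a median of 0.01 over all 3150 genes. Itgax (CD11c, an integrin of plaque-associated microglia) had 150 and 130 normalised CPM in ADAM 1 and ADAM 2, against 544 and 257 in AD 1 and AD 2 (log2 fold −1.48, SE 0.44, edgeR adjusted p = 0.9999). Of 18 microglia markers 3 were positive, with a median of −0.14. Of 12 mitochondrially encoded genes 0 were positive, with a median of −0.38. On the other side 76 of 79 ribosomal protein genes were positive, with a median of 0.44, as were 19 of 21 immediate early genes (0.23) and 6 of 7 interferon genes (0.43). The haemoglobin genes were below the filter on low counts in this comparison and were not tested. Lists of other cell types, given above as UMIs of a few cells in single libraries, also leaned to 1 side: all 4 neutrophil and 4 mural genes tested were positive (medians 1.13 and 1.77), as were both platelet genes (4.38), and 6 of 7 astrocyte genes were negative (median −1.39). The part of those cells, and of the mitochondrial mix given above, in the medians of the other lists was not tested.

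A second fit asked whether the genotype difference in state 2 differed from that in the other microglia of the same libraries. It called 6 of 11605 genes, which is 0.0517%, with 2 positive (0.0172%) and 4 negative (0.0345%), and 413 had an unadjusted p under 0.05. None of the 6 was Gatm, Spint1 or Axl. Ttr, Enpp2 and the neutrophil genes S100a9 and Retnlg were negative, and Slpi (a leukocyte protease inhibitor) and Mmp12 (macrophage elastase) were positive. DESeq2 and limma-voom called 0 of the same genes, with 111 and 521 at an unadjusted p under 0.05. Without ADAM 1 the fit called 34 genes, without ADAM 2 3 genes and without AD 2 10 genes, and over the low-marker cells it called 3, which were Retnlg, S100a8 and S100a9. The AD 1 cell described above held all 5713 Ttr UMIs and 188 of the 191 Enpp2 UMIs of its library's state 2, and neither gene was called without it and the other cells over 1%. A single AD 2 cell of 579 UMIs held 75 of the 88 S100a9 UMIs of its library's state 2, and another of 619 UMIs held 30 of the 46 Retnlg UMIs. In the cells under the 2% limit, which leave both out, neither gene was called.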

How the data were processed

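Cortices were digested, freed of debris on Percoll and sorted for CD45, and libraries were built with the 10x 3′ v3.1 chemistry, per the labels' protocols. Whole-number UMI counts per gene and cell were deposited by the authors, with cell classes, microglial states, a mitochondrial percent per cell and a doublet score per cell, all 3 used as the authors deposited them. According to the submitters' processing notes, the tools were Seurat 3.2.1.9002 and Cell Ranger 3.1.0 and the build was mm10; how cells were clustered, filtered and scored is not given in those notes. The deposited percent ends just under 10 and no cell has under 500 UMIs, so shallower or more mitochondrial cells were not analysed here.

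Counts were summed over the state 2 cells of each library. edgeR 4.0.16 (R 4.3.3) tested genotype with TMM scaling, the filter on low counts at a minimum of 10 and the robust quasi-likelihood test, with Benjamini-Hochberg adjustment over all genes tested. The second fit held state 2 and the other microglia of each library with a library term and tested the genotype by state term. DESeq2 1.42.0, limma 3.58.1 (voom), DESeq2 size factors, no filter, fewer genes, fewer cells, left-out libraries and library blocks were alternatives. State 2 against the other states is a description without a p-value, since the states were cut from the same counts. CPM are raw UMIs scaled by the total, and those called normalised are TMM-scaled. Thinning drew 500 UMIs per cell at random without replacement, and intervals are exact binomial at 95%, covering counting error only. State 2 held 96012 to 343004 UMIs per library, which limits the genes that can be tested. A p-value reflects how much pools of cortices differ, except where a gene had UMIs in 1 library per genotype. For such a gene, as Ttr in the second fit, it holds no spread between pools of a genotype. The edgeR steps were tested on simulated counts of even spread. Those held no single cells of other profiles, so that test does not bear on calls led by such cells.

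The members and lists were chosen with earlier results of these data known, and the lists of platelet, mural, mast cell and fibroblast genes and the 2% limit were chosen after values were seen. Genes were named by rule: the receptors Axl, Mertk and Tyro3 with their ligands, in each direction at most 10 called genes whose average log2 CPM reached 3 and whose genotypes did not overlap (predicted and ribosomal protein genes left out), the 10 genes with the highest ratio in each library among those with at least 20 UMIs, the haemoglobin genes and members of the marker lists. The genes named for a shift shared by all libraries, and the 6 called in the second fit, were chosen after values were seen. Promoters are from RefSeq (GRCm38.p6; 3 of the 4 matched haemoglobin genes are printed) and gene positions from GENCODE vM21 (GRCm38). Some members of the marker lists are not reported here.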

Additional observations from a re-analysis of the deposited data

Results flagged for a closer look

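For 6 genes the difference between ADAM and AD in state 2 differed from that in the other microglia, by the genotype by state term of edgeR's quasi-likelihood test with Benjamini-Hochberg adjustment. Slpi had a term of 4.22 on the log2 scale (SE 0.97, adjusted p = 0.0298), with 1 and 84 UMIs in state 2 of ADAM 1 and ADAM 2 and 0 and 2 in AD 1 and AD 2. Mmp12 had a term of 3.25 (SE 0.77, edgeR adjusted p = 0.0492), with 3 and 36 UMIs in ADAM 1 and ADAM 2 and 2 and 1 in AD 1 and AD 2. Without ADAM 2 the terms were 1.11 and 0.83, and neither was called. Slpi was called neither in the 683 cells under 1% haemoglobin and choroid plexus markers (4.07) nor in the 654 under 2% of any other list, and Mmp12 was lost in the first and called in the second (3.35).

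S100a9 had a term of −2.24 (SE 0.41) and Retnlg one of −2.67 (SE 0.49), each at an edgeR adjusted p of 0.000132. S100a9 had 9 and 595 UMIs in state 2 of ADAM 1 and ADAM 2 and 18 and 88 in AD 1 and AD 2. In the other microglia it had 83 and 3960 UMIs in ADAM 1 and ADAM 2 and 27 and 396 in AD 1 and AD 2. In the 654 cells both calls were lost and the terms turned positive, at 0.86 and 0.77. Ttr had a term of −8.89 (SE 0.56, edgeR adjusted p = 8.5e-52) and Enpp2 one of −7.17 (SE 0.82, edgeR adjusted p = 2.1e-14). In ADAM 1 and AD 2, Ttr had 0 UMIs in each cell set and Enpp2 at most 1. Both p-values thus rest on ADAM 2 and AD 1, 1 library per genotype, and hold almost no spread between pools. A single cell of AD 1 held 5713 Ttr and 188 Enpp2 UMIs; without the cells of 1% or more haemoglobin and choroid plexus markers the Ttr term turned to 7.63 and the Enpp2 term was −3.10, and neither was called. DESeq2 and limma-voom called 0 genes in this comparison.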

How the results depend on the processing

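For the genotype comparison (2 genes called), DESeq2 called 1 gene, limma-voom 1, the fit with no filter on low counts 12 and the 654 cells under the 2% limit 6. Leaving out 1 library gave 2 to 48 calls. For the genotype by state term (6 called), DESeq2 called 0 genes and limma-voom 0, the fit without haemoglobin and choroid plexus genes 2, the low-marker cells 3, and leaving out 1 library gave 3 to 34. The Ttr term changed sign to 7.63 in the low-marker cells and 7.55 under the 2% limit, and ran from −14.93 to 6.01 with 1 library left out, the positive value being without AD 1. Under the 2% limit the S100a9 term was 0.86 and the Retnlg term 0.77. With 1 library left out the Gas6 log2 fold ran from −0.84 to 0.15 and that of Pros1 from −0.62 to 0.047. Other causes were not tested.

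With the library number as a replicate block 6 genes were called; same-numbered libraries share only a number, and their deviations correlated at −0.28 over 3150 genes. The crossed pairing, chosen after seeing the data, called 0 genes, with 108 at an unadjusted p under 0.05. State 2 held at most 343004 UMIs per library, so genes of few UMIs were not detectable at this depth.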
